A study of Macaca fascicularis with 10 samples.

Results

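ENSMFAG00000045090, ENSMFAG00000035333 and ENSMFAG00000026656 are 3 of the 24148 genes measured in the dorsal spinal cord of cynomolgus macaques (Macaca fascicularis) with a ligated spinal nerve. They were taken by identifier, having been picked by their measured values for a small and even drop on the injured side, so what follows on that side difference is a description with no test. On the ipsilateral side the genes stood at 0.739, 0.730 and 0.730 times their contralateral level, and each was lower in every animal. The table names genes by Ensembl identifier alone, and the reference gene table used for this species holds 0 Ensembl identifiers, so none could be looked up. The genes are therefore described without a symbol, a function, a position or a sequence.

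The study took tissue from both sides of 5 animals, which gave 5 ipsilateral (right) and 5 contralateral (left) libraries. Every animal had SNL (spinal nerve ligation) surgery, in which tying a spinal nerve on 1 side serves as a model of neuropathic pain, so the contralateral cord belongs to an operated animal too. The sources used here do not give the nerve tied, the time after surgery or the age and sex of the animals, and no sham-operated animal was analysed here. The ipsilateral side was the right one in every animal, so that injury and body side cannot be told apart.

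The dorsal part of the cord holds the dorsal horn, where the central branches of primary sensory neurons end on relay neurons and interneurons. In rodents, injury of a spinal nerve is known to be followed by reactions of microglia and astrocytes and by altered excitability in the dorsal horn of the same side. Whether the 3 genes mark any of these cells is not known from the sources used here. RNA of a whole tissue piece was measured, so fewer cells of a type and less RNA per cell cannot be told apart in any of the values below.

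The ipsilateral libraries held 26539772 to 32101171 expected counts and the contralateral ones 26980910 to 34997645. An expected count is RSEM's estimate of the reads of a gene, in which reads that fit several genes are divided between them. All 10 counts of each of the 3 genes were whole to within 0.005, so no part of a read was shared out. CPM below stands for counts after TMM scaling of the library sizes, which evens out the bulk of the genes. Both libraries of animal 3 stood apart in this scaling, with factors of 0.798 (ipsilateral) and 0.830 (contralateral), against 1.03 to 1.10 in the other 8 libraries. TPM is the authors' value per transcript length, the scale on which levels of different genes are set against each other. Where genes are compared in counts or CPM, the comparison is of reads, which set the precision of a gene, and not of level per length.

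The 3 genes were abundant. Per length, ENSMFAG00000045090 was the highest of them on average, with a mean of 126 TPM over the 10 libraries, above 94.3% of the 16143 genes tested. ENSMFAG00000035333 followed with 99.1 TPM (above 92.6%) and ENSMFAG00000026656 with 88.9 TPM (above 91.7%). The median tested gene had 11.1 TPM. In counts the order was another, since the estimated transcript of ENSMFAG00000045090 was 0.578 times as long as that of ENSMFAG00000035333.

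In animals 1 to 5, ENSMFAG00000045090 had 4674, 4412, 4056, 4684 and 4592 expected counts on the ipsilateral side, against 5298, 6313, 6415, 6156 and 6308 on the contralateral side. After scaling it stood at 141, 151, 165, 147 and 136 CPM on the ipsilateral side, against 191, 201, 221, 211 and 177 CPM on the contralateral side. All 5 ipsilateral values lay below all 5 contralateral ones. The mean was 148 ± 11.1 CPM on the ipsilateral side and 200.4 ± 17.1 CPM on the contralateral side (SD, n = 5 each), a log2 fold change of -0.44 ± 0.04 (SE), or 26.1% lower.

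In CPM the gene varied little between animals, with a coefficient of variation of 7.50% on the ipsilateral and 8.51% on the contralateral side. In TPM, without TMM scaling, it was 19.0% on the ipsilateral and 16.6% on the contralateral side. Such separation was rare in the table: all ipsilateral CPM values lay below all contralateral ones in 7 of the 16143 tested genes, or 0.0434%. Since the gene was picked on this contrast, nothing is read from that share. In TPM the groups overlapped, with 105, 134, 76.8, 112 and 108 TPM on the ipsilateral side, against 143, 171, 108, 162 and 142 TPM on the contralateral side. The overlap came from animal 3, whose contralateral value lay below the ipsilateral values of animals 2 and 4. Without animal 3 the ipsilateral values reached 134 TPM at most, and the contralateral ones began at 142 TPM.

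For ENSMFAG00000035333, animals 1 to 5 gave 5584, 7387, 2417, 7046 and 6859 expected counts on the ipsilateral side, against 6643, 10533, 3780, 9475 and 9463 on the contralateral side. These were 168, 253, 98.4, 222 and 203 CPM on the ipsilateral side, against 239.6, 336, 130.3, 325 and 266 CPM on the contralateral side. The groups overlapped: the ipsilateral values of the other 4 animals lay above the contralateral value of animal 3. Without animal 3 the overlap in CPM was narrow: the ipsilateral side of animal 2, at 253 CPM, was higher than the contralateral side of animal 1, at 239.6 CPM. In TPM it was wider: the ipsilateral side of animal 2, at 129 TPM, lay above the contralateral sides of animal 1 (104 TPM) and animal 5 (123 TPM). Within each animal the ipsilateral side was nonetheless the lower one.

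The mean of ENSMFAG00000035333 was 189 ± 59.1 CPM on the ipsilateral side and 259 ± 82.6 CPM on the contralateral side (SD, n = 5 each), a log2 fold change of -0.45 ± 0.04 (SE), or 27.0% lower. That SE comes from the comparison within animals, which leaves the large spread between them out. In TPM the gene stood at 72.2, 129, 26.5, 97.1 and 92.8 on the ipsilateral side, against 104, 165, 36.9, 144.5 and 123 on the contralateral side. Animal 3 was the lowest of its side on both scales.

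ENSMFAG00000026656 had the fewest reads of the 3, with 3041, 3418, 1556, 3135 and 3359 on the ipsilateral side of animals 1 to 5, against 3451, 4660, 2670, 4163 and 4709 on the contralateral side. It stood at 91.7, 117, 63.3, 98.6 and 99.5 CPM on the ipsilateral side, against 124, 149, 92.0, 143 and 132 CPM on the contralateral side. In CPM the groups overlapped through animal 3 alone: without it, the ipsilateral values ended at 117 CPM and the contralateral ones began at 124 CPM. In TPM an overlap remained without animal 3: the ipsilateral values reached 109.7 TPM and the contralateral ones began at 99.8 TPM.

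The mean of ENSMFAG00000026656 was 94.0 ± 19.5 CPM on the ipsilateral side and 128 ± 22.2 CPM on the contralateral side (SD, n = 5 each), a log2 fold change of -0.45 ± 0.04 (SE), or 27.0% lower. In TPM it had 72.5, 109.7, 31.0, 80.2 and 84.6 on the ipsilateral side, against 99.8, 134, 47.4, 117 and 114 on the contralateral side. Its drop in TPM was the least even of the 3 genes, from 18.1% in animal 2 to 34.6% in animal 3.

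**Figure D1:**
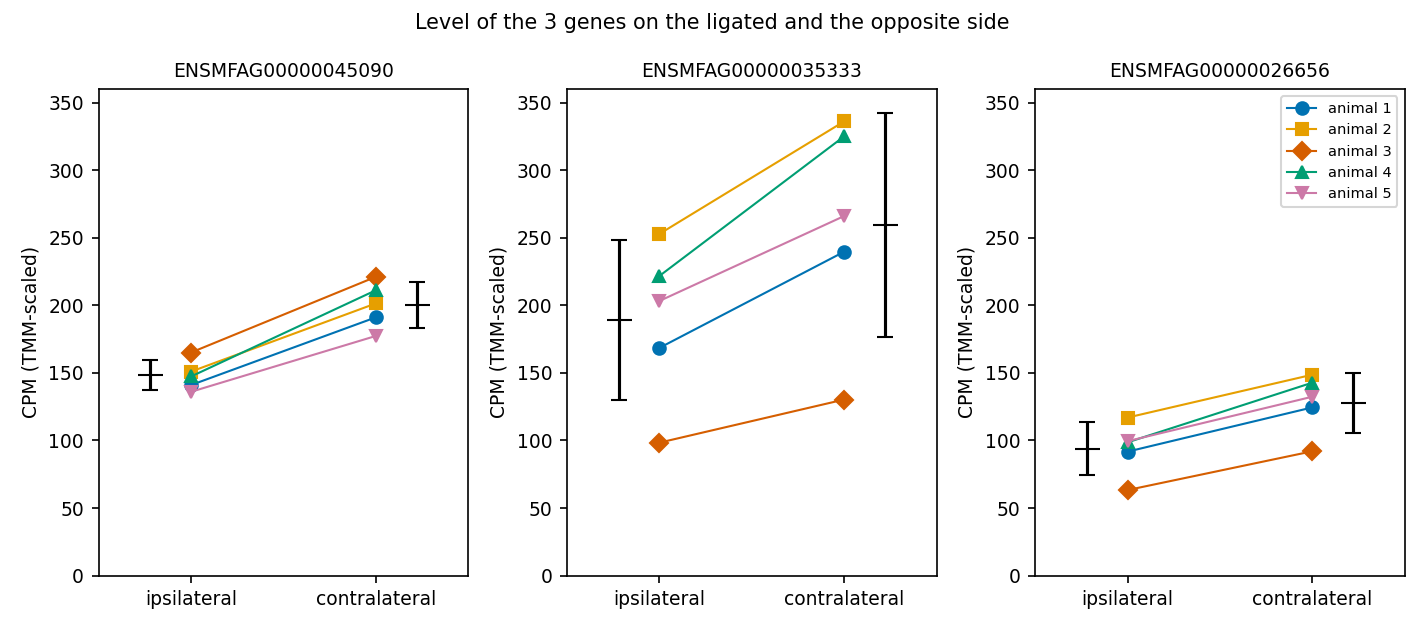
TMM-scaled CPM of each gene (y axis, linear from 0) on the ipsilateral and contralateral side (x axis); each line joins the 2 sides of 1 animal, and the black bars are the mean ± SD of 5 animals. All 15 lines are lower at the ipsilateral end; animal 3 is the highest line for ENSMFAG00000045090 and the lowest for ENSMFAG00000035333 and ENSMFAG00000026656.

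Within animals, the drop had nearly the same size in all 3 genes. All 15 side differences (3 genes in 5 animals) were negative and lay between -0.55 and -0.35 in log2 CPM. For ENSMFAG00000045090 they were -0.44, -0.42, -0.42, -0.52 and -0.38 in animals 1 to 5, with a mean of -0.44 ± 0.05 (SD, n = 5). For ENSMFAG00000035333 they were -0.51, -0.41, -0.40, -0.55 and -0.39, with a mean of -0.45 ± 0.07 (SD, n = 5). For ENSMFAG00000026656 they were -0.44, -0.35, -0.54, -0.53 and -0.41, with a mean of -0.45 ± 0.08 (SD, n = 5). Animal 4 showed the largest drop of the first pair of genes and animal 3 that of ENSMFAG00000026656, narrowly ahead of animal 4.

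The raw counts were lower too in every pair, also in animals 1 and 4, whose ipsilateral libraries were the deeper ones. In animals 2, 3 and 5 the ipsilateral library was the shallower one, which adds to the raw difference. In animal 1, ENSMFAG00000045090 had 624 fewer counts in an ipsilateral library of 32101171 than in a contralateral one of 26980910. Counting error was small beside the drop. Its standard error per animal was 0.03 in log2 for ENSMFAG00000045090, 0.02 to 0.04 for ENSMFAG00000035333 and 0.03 to 0.05 for ENSMFAG00000026656. The spread of the drop between animals was 1.8, 2.7 and 2.3 times the counting error in the 3 genes. These errors cover counting alone, since reads copied by PCR are not independent molecules. The genes were picked by their measured values for an even drop. Lower counts in every pair, and a drop large beside its counting error, are therefore no separate support.

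The 3 genes were among 80 that edgeR's quasi-likelihood test, with the animal as a block, called lower on the ipsilateral side (0.496% of the 16143 tested), out of 444 called in either direction (2.75%). All 3 were lower in 5 of 5 animals, as were 839 tested genes (5.20%). Being picked on this contrast, they had to be in both groups. The median side difference of all tested genes was between -0.0014 and 0.015 in log2 CPM in every animal. TMM scaling evens out the bulk of the genes and so brings this median near 0, and nothing is read from it about the 3 genes.

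Among the 80, the 3 genes joined a high level with a comparatively large drop. Per length they were the 7th (ENSMFAG00000045090), 12th (ENSMFAG00000035333) and 14th (ENSMFAG00000026656) highest, where the median of the 80 was 22.7 TPM. By reads, at means of 174, 224 and 111 CPM in the same order, they were the 13th, 8th and 20th, with a median of 51.5 CPM. Their log2 fold changes held the 14th, 12th and 13th place from the largest drop. Of the 14 genes called lower with at least 88.9 TPM, the 3 had the largest drops, the next gene stood at -0.31 and the median was -0.25. Of the 20 with at least 111 CPM they again had the largest drops, with the next gene at -0.35 and a median of -0.24. The other 77 genes called lower had a median of -0.26. The 3 were picked on this contrast, and the limits of 88.9 TPM and 111 CPM are their own lowest means. Nothing is therefore read from these places. Of all 16143 tested genes, called or not, 219 had a log2 fold change at least as low as that of ENSMFAG00000045090, these 3 among them.

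The evenness of the drop looked different depending on the genes it was set beside. The SD of the 5 side differences was 0.0508 for ENSMFAG00000045090, the smallest of the 80. It was 0.0725 for ENSMFAG00000035333 and 0.0824 for ENSMFAG00000026656, in 7th and 14th place. The genes just before and just after ENSMFAG00000026656 in that order had 0.0815 and 0.0834. ENSMFAG00000045090, ENSMFAG00000035333 and ENSMFAG00000026656 were picked for an even drop, so nothing is read from these places. Of all tested genes, called or not, 680, 1978 and 2735 had a smaller SD than each of them, in the same order. The median SD was 0.138 in the other 77 called lower genes and 0.159 in all tested genes. Tested genes within 1.5-fold of the same CPM, and so of similar counting precision, whether called or not, had medians of 0.0914 (1055 genes around ENSMFAG00000045090), 0.0915 (780 around ENSMFAG00000035333) and 0.0924 (1630 around ENSMFAG00000026656). The scatter of ENSMFAG00000035333 and ENSMFAG00000026656 was thus near that of other genes with as many reads.

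**Figure D2:**
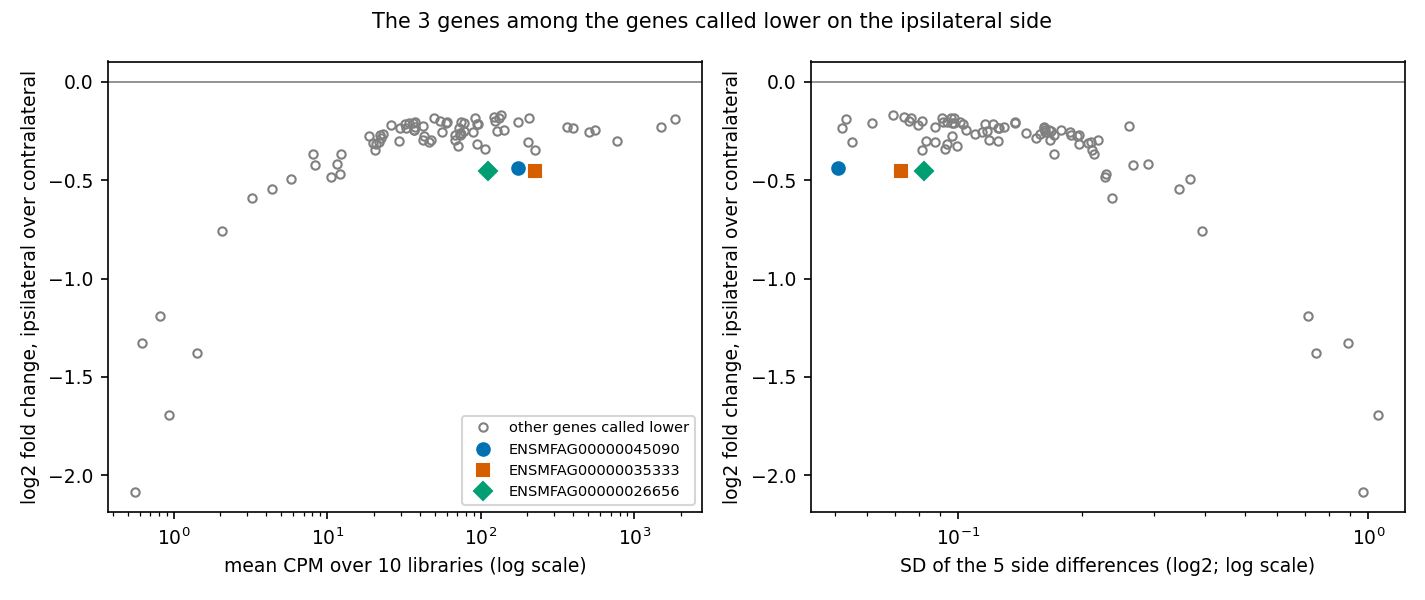
Log2 fold change, ipsilateral over contralateral (y axis), of the 80 genes called lower, against mean CPM (left, log axis) and against the SD of the 5 side differences (right, log axis); grey circles are the other 77 genes. The 3 genes, at -0.45 to -0.44, lie below the other called lower genes of similar CPM, and at the low end of the SD axis. They were picked for a small and even drop, so nothing is read from this position.

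Animal 5 was the animal in which genes called lower moved least. The other 77 had a median side difference of -0.36, -0.23, -0.27, -0.25 and -0.17 in animals 1 to 5, and 74 of them were lower in animal 5. In that animal the 3 genes stood at -0.38 (ENSMFAG00000045090), -0.39 (ENSMFAG00000035333) and -0.41 (ENSMFAG00000026656). These were the smallest drop of the first pair and the second smallest of ENSMFAG00000026656. In percent, animal 5 was 23.3%, 23.6% and 24.8% lower on the ipsilateral side in the 3 genes, and animal 4, 30.2%, 31.8% and 30.9% lower. The 3 genes were picked for an even drop, so nothing is read from their values in animal 5 beside those of the other 77.

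**Figure D3:**
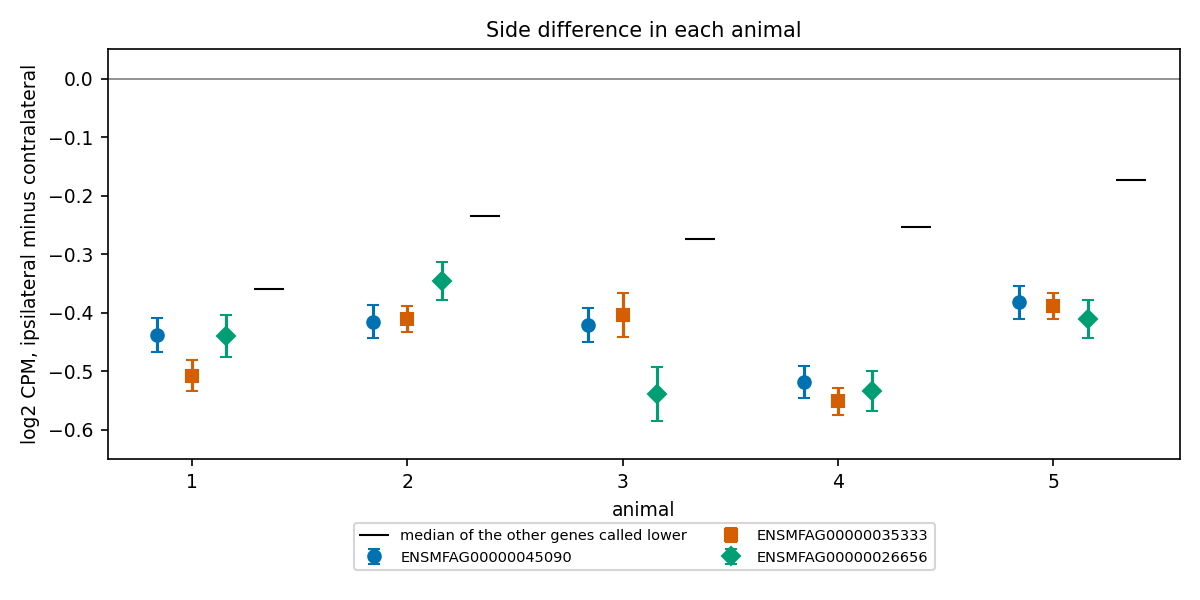
Side difference in log2 CPM, ipsilateral minus contralateral (y axis), of the 3 genes in each animal (x axis); bars are the counting standard error, and black dashes the median of the other 77 genes called lower. The 15 points lie between -0.55 and -0.35, and the dashes between -0.36 and -0.17. The 3 genes were picked for an even drop, so nothing is read from the points being more even than the dashes.

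A ratio of 2 genes within a library does not depend on scaling. The 3 genes were picked for a small and even drop, so a small change of their ratios with the side follows in part from that choice. The ratio of ENSMFAG00000045090 to ENSMFAG00000035333 differed between the sides by 0.02 ± 0.03 in log2 (SD, n = 5), with 0.07, -0.01, -0.02, 0.03 and 0.01 in animals 1 to 5. The counting error of such a difference was 0.04, and the scatter between animals was 0.880 times that error. The ratio of ENSMFAG00000045090 to ENSMFAG00000026656 differed by 0.02 ± 0.07 and that of ENSMFAG00000035333 to ENSMFAG00000026656 by 0.001 ± 0.08 (SD, n = 5 each), with a counting error of 0.05 in both. The largest single differences, 0.12 and 0.13, were both in animal 3, where ENSMFAG00000026656 dropped more than the other genes.

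The same ratios differed greatly between animals. ENSMFAG00000045090 had 1.45, 1.03, 2.90, 1.15 and 1.16 times the TPM of ENSMFAG00000035333 on the ipsilateral side of animals 1 to 5, against 1.38, 1.04, 2.93, 1.12 and 1.15 times on the contralateral side. The animals thus ranged from near equality in animal 2 to almost 3-fold in animal 3, and both sides of an animal gave nearly the same figure. The TPM ratio of ENSMFAG00000035333 to ENSMFAG00000026656 ran from 0.857 to 1.21 on the ipsilateral side and from 0.780 to 1.24 on the contralateral side, lowest in animal 3 on both.

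The level of an animal, averaged over its sides, set the genes apart more than the drop did. The SD of the 5 animal means was 0.11 in log2 CPM for ENSMFAG00000045090, 0.54 for ENSMFAG00000035333 and 0.30 for ENSMFAG00000026656, where the median tested gene had 0.37. A smaller SD was found in 7.41%, 70.3% and 38.5% of the tested genes. The spread between animals was 2.22, 7.45 and 3.64 times the spread of the side differences. The genes were picked for an even drop, which keeps the latter spread small, so nothing is read from these ratios. Without animal 3 the SD of the animal means was 0.08, 0.24 and 0.13.

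For ENSMFAG00000035333, animal 3 had 0.470 times the level of the other 4 animals on the ipsilateral side and 0.451 times on the contralateral side, in CPM. For ENSMFAG00000026656 it had 0.625 times on the ipsilateral and 0.673 times on the contralateral side. For ENSMFAG00000045090 it had 1.15 times on the ipsilateral and 1.13 times on the contralateral side, and there the scaling decided the direction. With libraries scaled to their totals alone, animal 3 had 131.6 CPM on the ipsilateral and 183 CPM on the contralateral side, the lowest of each side, and in TPM too it was the lowest. Its low ENSMFAG00000035333 and ENSMFAG00000026656 kept their direction on all 3 scales.

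The other 4 animals kept 1 order in ENSMFAG00000035333 on either side and either scale, with animal 2 highest, then animals 4, 5 and 1. On the contralateral side this was also the order in ENSMFAG00000026656. On its ipsilateral side animals 4 and 5 changed places, by a margin of 98.6 against 99.5 CPM, which is less than the spread of its side differences.

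**Figure D4:**
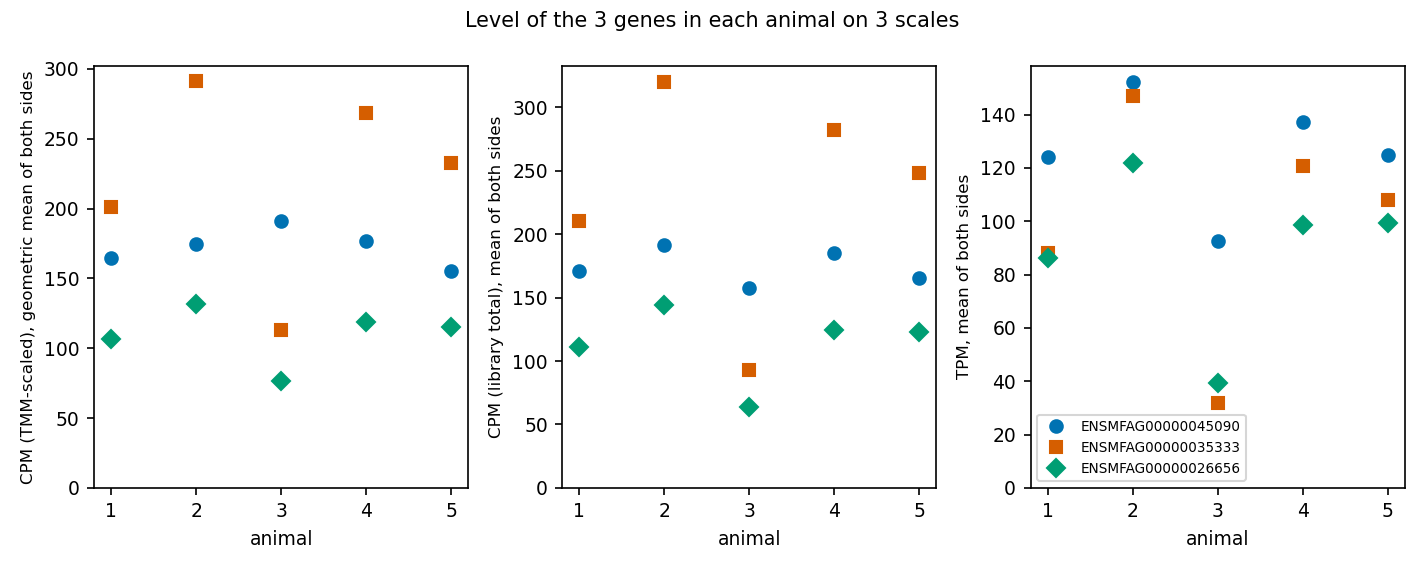
Level of the 3 genes in each animal (x axis), averaged over both sides, as TMM-scaled CPM (left), CPM of the library total (middle) and TPM (right), all on linear axes from 0. Animal 3 is lowest for ENSMFAG00000035333 and ENSMFAG00000026656 in each panel, and for ENSMFAG00000045090 it is highest at the left (191 CPM) and lowest in the middle (157 CPM) and at the right (92.5 TPM).

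ENSMFAG00000035333 and ENSMFAG00000026656 followed each other over the 10 libraries, while ENSMFAG00000045090 in CPM followed them closely only without animal 3. Pearson's r of log2 CPM was 0.96 for the first pair (Spearman's rho 0.96) and 0.95 without animal 3. ENSMFAG00000045090 correlated with ENSMFAG00000035333 at r = 0.19 (rho 0.32) and with ENSMFAG00000026656 at r = 0.41 (rho 0.43), and without animal 3 at r = 0.86 and 0.93. These are descriptions with no p, because the 10 libraries come from 5 animals, share their scaling and hold the side difference by which the genes were picked.

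Taken on each side alone, which leaves that difference out, ENSMFAG00000035333 and ENSMFAG00000026656 correlated at r = 0.99 on the ipsilateral and 0.999 on the contralateral side (5 animals each). ENSMFAG00000045090 ran the other way on both sides, at r = -0.62 (ipsilateral) and -0.42 (contralateral) with ENSMFAG00000035333, and at -0.64 (ipsilateral) and -0.44 (contralateral) with ENSMFAG00000026656. The scale decided this sign: in log2(TPM + 1), r on the 2 sides was 0.98 (ipsilateral) and 0.98 (contralateral) with ENSMFAG00000035333, and 0.98 (ipsilateral) and 0.96 (contralateral) with ENSMFAG00000026656. Animal 3 is the lowest of its side in TPM in all 3 genes, and such correlations over 5 animals lean on it. The side differences of the 5 animals correlated at r = 0.90 between ENSMFAG00000045090 and ENSMFAG00000035333, at 0.58 between ENSMFAG00000045090 and ENSMFAG00000026656, and at 0.43 between ENSMFAG00000035333 and ENSMFAG00000026656. Without animal 3, a comparison added after the data were seen, these were 0.92, 0.83 and 0.85 over 4 animals, so the low values of the last 2 pairs rested on animal 3.

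Over the 10 libraries, r holds the side difference by which the members were picked. A search by it favours genes that also move with the side, so a call among the matches is no separate support. This weighs on ENSMFAG00000045090 in particular, whose animal means had an SD of 0.11 in log2 CPM beside a drop of -0.44. The genes most like each member were sought among the other tested genes by r of log2 CPM over the 10 libraries. For ENSMFAG00000045090 these were ENSMFAG00000003238 (r = 0.94) and ENSMFAG00000035657 (r = 0.91), both also called lower, with log2 fold changes of -0.31 and -0.21. For ENSMFAG00000035333 they were ENSMFAG00000043907 (r = 0.99; called lower, -0.33) and ENSMFAG00000040575 (r = 0.96; not called, -0.10). For ENSMFAG00000026656 they were ENSMFAG00000002257 (r = 0.96; not called, -0.11) and ENSMFAG00000035333 itself. An r of at least 0.95 was reached with 0 other genes by ENSMFAG00000045090, with 19 genes by ENSMFAG00000035333 and with 3 by ENSMFAG00000026656; without animal 3 these counts were 1, 8 and 1. Without animal 3, other genes came first for ENSMFAG00000045090 and ENSMFAG00000035333, and ENSMFAG00000035333 was the gene most like ENSMFAG00000026656.

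TPM and count could part if the estimated transcript length of a gene moved with the side. The ratio of expected count to TPM, set against the median of 12383 genes in the same library, gives that relative length and does not depend on the level of the gene, so it was tested. It was 0.898 to 0.905 for ENSMFAG00000045090, 1.56 for ENSMFAG00000035333 and 0.837 to 0.862 for ENSMFAG00000026656 over the 10 libraries. Between the sides it differed in log2 by 0.000178 ± 0.00146, 0.000408 ± 0.00127 and -0.00167 ± 0.00843 (SD, n = 5; two-sided exact sign-flip permutation p = 0.8125, 0.8125 and 0.75, where 5 animals can give no less than 0.0625). For each gene the relative length was the shorter one ipsilaterally in 2 of 5 animals. The largest in any single animal was -0.0135, for ENSMFAG00000026656, small beside the drop of the genes. In TPM the mean side difference was accordingly -0.45 ± 0.07, -0.47 ± 0.09 and -0.47 ± 0.12 in log2 (SD, n = 5) in the order above.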

How the data were processed

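RNA-seq libraries of the dorsal cord (5 ipsilateral, 5 contralateral) were grouped and paired by the animal numbers in the labels. Per the labels' protocols, total RNA came from a column kit and went into stranded mRNA libraries. Per the submitters' processing notes, the authors used fastp 0.22.0, STAR 2.7.9a and RSEM 1.3.1. The sources used here give no parameters, build or annotation. The authors deposited RSEM expected counts and TPM values, the latter scaled to 1 sum in every library and keeping no depth. All 20 columns matched a sample by its description, and 0 were left out.

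Expected counts were rounded and fitted with edgeR 4.0.16 (R 4.3.3): filterByExpr kept 16143 genes and removed 8005, TMM scaled the libraries, and animal was a block in the robust quasi-likelihood test. A call needed an adjusted p (Benjamini-Hochberg, across all tested genes) under 0.05. The prior count of log2 CPM was 2. The SE of a fold change is its size over the square root of F. Lengths used genes with at least 1 TPM in every library (scipy 1.17.1). The fit was tested on simulated data, where its false calls exceeded the nominal share when genes kept their own dispersions.

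The members and all lists were chosen with earlier results of these data known. The 3 genes and the 2 genes most like each are named. An F test between animals had been planned as well; its error is the scatter of the side differences, on which the genes were picked, so it is not reported. Marker genes could not be looked up without symbols. Same-numbered libraries come from the same animal, which is the source of the pairing; deviations of their log2 CPM from the side means correlated at 0.676 to 0.942, against at most 0.395 between animals. Alternatives were other scalings and filters, DESeq2 1.42.0, limma-voom (limma 3.58.1), log2(TPM + 1) and log2(TPM + 0.1), no block, and each animal left out. Places by TPM among the genes called lower, and side-difference correlations without animal 3, were added after the data were seen.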

Additional observations from a re-analysis of the deposited data

Results flagged for a closer look

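Of 21 groups of 5 values (levels, side differences, relative lengths and gene ratios), Dixon's test marked 1 value as far from its group. About 1 group in 20 is marked by chance, or 1.05 of 21. The side difference in relative transcript length of ENSMFAG00000035333 was 0.00264 in log2 in animal 4, against 0.000122 in the next animal. In size it is far below the drop of the gene in that animal, -0.55.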

How the results depend on the processing

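The drop of the 3 genes moved by less than its SD between animals in all 45 values recomputed. It ran from -0.45 to -0.41 in ENSMFAG00000045090, from -0.47 to -0.43 in ENSMFAG00000035333 and from -0.48 to -0.43 in ENSMFAG00000026656, and these ends came from leaving out an animal. Without the replicate block the fold changes were -0.44, -0.46 and -0.45. The settings share the same libraries, and the genes were picked for evenness, so this is no separate support.

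The number of genes called, 444 (80 lower), was 0 (0 lower) without the block, where 193 had an unadjusted p under 0.05; DESeq2 and limma-voom were run with the block only. With an animal left out it ran from 135 to 1255 genes, and from 12 to 482 lower ones: 135 (12 lower) without animal 1, 196 (30) without animal 2, 206 (27) without animal 4 and 1255 (482) without animal 5. Scaling by the library total gave 46 lower genes and no filter 128; the cause was not tested.

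The correlation of ENSMFAG00000045090 with ENSMFAG00000035333, 0.19, was 0.86 without animal 3, 0.65 with library totals and 0.88 in log2(TPM + 1). With ENSMFAG00000026656, 0.41, it was 0.93, 0.75 and 0.92 under the same settings. The reference set for transcript length and the animal left out changed no length difference by more than its SD. With 5 animals no exact permutation test could pass 0.05. The alternatives planned for a test between animals are left out with that test.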
